A study of Mus musculus with 8 samples.

Results

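Isg20, Rexo2, Nadk, Rap1gap and Cd302 are 5 genes outside the protein folding and transport machinery that read several-fold higher in germinal centre B cells of a T-independent (TI) response than in those of either T-dependent (TD) response. They were selected on that difference in intensity, on these same arrays, so it is described here and not tested. The 5 genes were found by symbol in the annotation of the array's 12488 probe sets, and each had 1 probe set. All 5 probe sets passed the filter on low values, under which a probe set had to read above 81 intensity units on at least 2 arrays, as 7253 did. That value, the median of all intensities, served as the floor, and a lower reading is given as under the floor because it has no usable order.

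Sorted mouse B cells were measured on 8 Affymetrix arrays, 2 for each of 4 groups, with RNA from pools of 4 to 10 animals and separate mice in each replicate. All mice were F1 animals of the QM and B6 strains. QM mice carry an introduced, rearranged antibody heavy chain gene, and most of their B cells bind the hapten NP, so these responses are those of a largely preset repertoire. Resting B cells (GL7- B220+) came from unimmunised mice. Germinal centre B cells (GL7+ B220+) came from 3 responses. TI day 4 mice received 30 µg of NP-Ficoll, a haptenated polysaccharide. TD day 4 mice were primed with 50 µg of alum-precipitated chicken gamma-globulin and heat-killed B. pertussis, given 50 µg of soluble NP-CGG 5 weeks afterwards, and sorted 4 days after this challenge. TD day 10 mice received 50 µg of alum-precipitated NP-chicken gamma-globulin with B. pertussis and no earlier priming, and were sorted on day 10. TI and TD thus also differed in adjuvant, dose and, for TD day 4, priming.

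T-independent antigens of this kind stimulate B cells by cross-linking many receptors at once, and the germinal centres that form without T cell help are short-lived. Isg20 and Rexo2 are 3'-5' exonucleases of the same enzyme superfamily. Isg20 is induced by interferon and degrades RNA, and Rexo2 removes very short RNA fragments, mainly in mitochondria. Nadk phosphorylates NAD to NADP in the cytosol. Rap1gap switches off the small GTPase Rap1, which controls integrin adhesion. Cd302 is a C-type lectin receptor of the cell surface, best known from macrophages and dendritic cells.

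RefSeq lists 14 start sites for the 5 genes on GRCm38.p6, and the 250 bases before each were searched on both strands. The letters CCACG, part of the endoplasmic reticulum stress response element, occurred in 4 of the 5 genes (Isg20, Rexo2, Nadk and Rap1gap, not Cd302). They were in 10 of the 14 windows, against 28.3% of all 32851 windows. Of these 10, 7 are the windows of Rap1gap, most of which overlap, with 4 distinct sites among them, and the other 4 genes had the letters in 3 of 7 windows. They occur for 31.0% of all 27025 listed genes, which may each have several windows, and for 28 of 44 genes of a secretory pathway list. The letters TGACGTG, the core of an element bound by XBP1, can overlap CCACG and occurred at Isg20 alone among the 5 genes and for 1.85% of all genes. Stretches of at most 30 bases are shown because they hold these letters before genes that read high together. They run 5' to 3' along the strand of the gene, and the capitals mark both of these motifs, read on either strand.
Isg20, chr7:78913741-78913764, plus strand: ccgtCCACGTCAgaCACGTCAtcc
Rexo2, chr9:48480617-48480640, minus strand: tcccCGTGGgtttgcgacgtttag
Rexo2, chr9:48480753-48480776, minus strand: aacaCGTGGcgggggaggggagca
Nadk, chr4:155563770-155563793, plus strand: ctccCCACGtgccctgcagcgcat
Rap1gap, chr4:137664609-137664632, plus strand: ggcgCGTGGcaggggttgcctccc
The Isg20 stretch held TGACGTG on the reverse strand 2 times and ended at the base before its start site. The interferon-stimulated response element was found in 0 of the 14 windows, those of Isg20 included, and for 3.46% of all genes. A Blimp-1-like element was also in 0 windows (0.448% of all genes), and a PU.1 and IRF composite element in 1 window of Nadk (2.68% of all genes). A match describes letters only, and binding was not measured.

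The sorted cells carried B cell transcripts on all arrays. The receptor chain gene Cd79a read between 4405 and 9702 and the B lineage factor gene Pax5 between 1932 and 2775. Bcl6, a repressor needed for germinal centres, read 438 and 452 in resting, 1236 to 1475 on the 4 TD arrays, and 846 and 1034 in TI. In summed intensity, the germinal centre markers were nearer to resting in TI than in TD, though single markers differed. The sum of 10 of them was 6657 and 7139 in TI, 5430 and 6797 in resting, and 9711 to 10680 on the TD arrays, with negative readings counted as 0 in this and all later sums. Gcsam, a signalling adaptor of germinal centre B cells, read 156 and 131 in TI, 154 and 101 in resting, and 501 to 768 on the TD arrays. Lmo2, a transcriptional cofactor, read 459 and 383 in TI, 845 and 933 in resting, and 668 to 780 on the TD arrays. Mki67, a gene of dividing cells, set TI apart from resting. It read 348 and 163 in TI, 9 and 34 in resting, both under the floor, and 491 to 623 on the TD arrays. Of the 10 markers, 9 were above the floor on both arrays in TI and in each TD group, and 6 in resting. The T cell gene Cd3e was below 0 on all 8 arrays. The red cell gene Hba-a1 read 15550 and 13751 in resting and 285 to 696 on the germinal centre arrays. The neutrophil gene S100a8 read 2833 and 3279 in resting and 169 to 938 on the germinal centre arrays. The resting arrays thus carried more signal of these other cells. Its part in the differences from resting was not tested. Array medians lay between 77 and 89 units. With 2 arrays a group, precision is limited by their number. In pools of sorted cells, fewer cells of a type and less RNA per cell cannot be told apart.

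Among the nucleases, Isg20 read 486 and 675 in TI, 119 and 139 in TD day 4, 105 and 89 in TD day 10, and 309 and 298 in resting. TI was highest, resting lay between, and both TD groups were lowest, with no overlap between any of the 4 groups. The TI mean of 580.5 ± 134 stood against TD means of 129 ± 14.1 at day 4 and 97.0 ± 11.3 at day 10 (SD, n = 2 each). This is 4.45-fold and 5.92-fold in the fit on the log2 scale. Against resting (303.5 ± 7.78), the log2 difference was 0.92 ± 0.21 (SE) in TI, and in the TD groups it was -1.24 ± 0.21 at day 4 and -1.65 ± 0.21 at day 10. The gene was therefore 1.89-fold above its resting level in TI and 2.36-fold and 3.14-fold below it in the TD groups.

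Rexo2, the other exonuclease, had a different resting level. It read 775 and 1171 in TI, 174 and 142 in TD day 4, 148 and 125 in TD day 10, and 26 and 42 in resting, both under the floor. Here the resting arrays were the lowest and all 6 germinal centre arrays lay above them. The TI mean was 973 ± 280, against 158 ± 22.6 in TD day 4 and 136.5 ± 16.3 in TD day 10 (SD, n = 2 each), or 6.06-fold and 7.0-fold. From the floor that stands for resting, the gene was at least 11.8-fold higher in TI, at least 1.94-fold higher in TD day 4 and at least 1.68-fold higher in TD day 10. Between the TD groups its arrays overlapped.

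Nadk read 645 and 1437 in TI, 96 and -75 in TD day 4, 50 and -2 in TD day 10, and 288 and 276 in resting. Only 1 of the 4 TD arrays was above the floor, and both TI arrays were above both resting arrays. The TI mean of 1041 ± 560 had the widest spread of the 5 genes (SD, n = 2). The fold was at least 10.9 over TD day 4 and at least 11.9 over TD day 10, above the measured folds of Isg20 and Rexo2. The folds of Rap1gap and Cd302 are lower bounds as well, so these 3 genes cannot be ordered. Against resting (282 ± 8.49) Nadk was 3.42-fold higher in TI, at least 3.20-fold lower in TD day 4 and at least 3.48-fold lower in TD day 10.

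Rap1gap read 465 and 786 in TI, 83 and 54 in TD day 4, 64 and -112 in TD day 10, and 155 and 75 in resting. Of the 6 arrays outside TI, 1 resting array and 1 TD day 4 array exceeded the floor, so the gene was near or under the measurable range except in TI. The TI mean was 625.5 ± 227 (SD, n = 2), at least 7.37-fold over TD day 4, at least 7.46-fold over TD day 10 and at least 5.40-fold over resting. TD day 4 and resting overlapped.

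Cd302, the lectin receptor, read 417 and 449 in TI, 63 and 44 in TD day 4, -41 and -39 in TD day 10, and 850 and 608 in resting. Resting was highest, TI was intermediate and all 4 TD arrays were under the floor, with TI and resting not overlapping. The TI mean of 433 ± 22.6 (SD, n = 2) was at least 5.34-fold over the floor that stands for each TD group. It was 1.66-fold below the resting mean of 729 ± 171 (SD, n = 2), and in both TD groups the gene was at least 8.88-fold below resting. Raised in the TI response thus held for Cd302 against the TD groups and not against resting B cells.

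**Figure D1:**
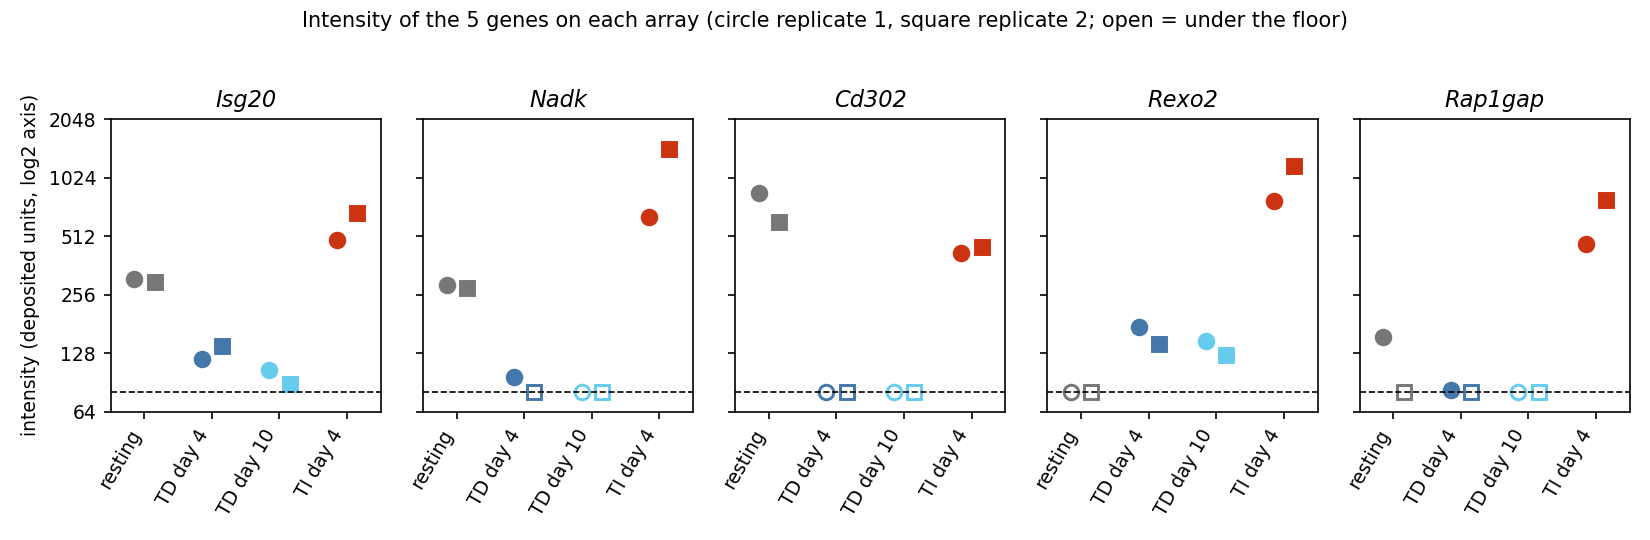
Deposited intensity (log2 axis) of the 5 genes on the 8 arrays, by group, with circles for replicate 1 and squares for replicate 2; the dashed line is the floor of 81, and open symbols are readings at or under it, drawn on the line. Both TI arrays lie above all 4 TD arrays in every panel, while the resting arrays lie above TI for Cd302 and under the floor for Rexo2.

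The 5 genes thus shared the order of TI above TD and differed in where resting cells stood. Both TI arrays exceeded all 4 TD arrays for 5 of 5 genes, which is what chose them, and for 13.7% of all tested probe sets. Both TI arrays exceeded all 6 other arrays for 4 of 5, all except Cd302 (7.4% of tested probe sets). The same 4 genes had both TI arrays above both resting arrays (23.6%), and Cd302 had both below (24.8%). All 4 TD arrays were below both resting arrays for Isg20, Nadk and Cd302 (16.0% of tested probe sets), and above both for Rexo2 (19.0%). In Isg20 and Nadk both TI arrays lay above resting while all TD arrays lay below it, a pattern of 0.786% of tested probe sets. The selection fixed part of these patterns, so the shares over all probe sets make them look rarer than they are. Among the 997 probe sets with both TI arrays above all 4 TD arrays, 537 had TI above all 6 other arrays. The pattern of Isg20 and Nadk was held by 57 of the 997.

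**Figure D2:**
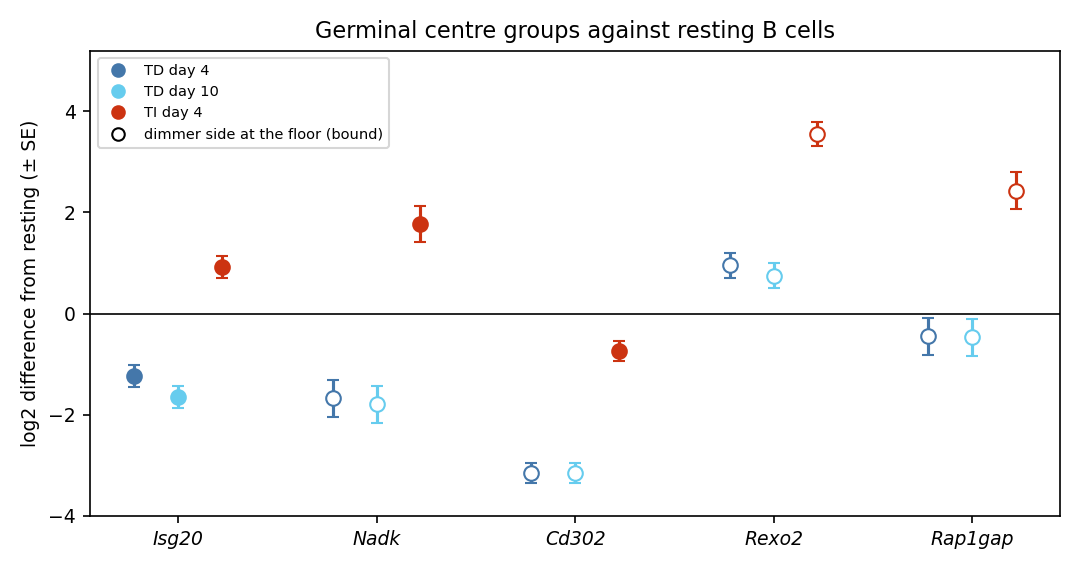
Log2 difference of each germinal centre group from resting B cells for the 5 genes, with bars of 1 SE from the fit on 8 arrays; an open symbol marks a bound, where at least 1 array of the dimmer side was under the floor. Isg20, Nadk and Rap1gap lie above 0 in TI and below 0 in both TD groups, for Rap1gap by less than 0.5 and from readings mostly under the floor, Cd302 lies below 0 in all 3, and Rexo2 above 0 in all 3.

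By the smaller of its log2 differences from the TD groups, Nadk ranked 4th of the 7253 tested probe sets at 3.45, Rap1gap 9th at 2.88, Rexo2 11th at 2.60, Cd302 18th at 2.42 and Isg20 27th at 2.15. These ranks describe the selection, and those of Nadk, Rap1gap and Cd302 rest on lower bounds, so their order depends in part on the floor. Of the 27 probe sets at or above the value of Isg20, 25 had 1 gene symbol, and 6 of those were on the secretory pathway list.

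The difference between the TD groups was not used to choose the genes and was tested with limma over all 7253 probe sets. It called 0 of them (0.0%), with 373 at an unadjusted p under 0.05. Isg20 had a log2 difference of -0.41 ± 0.21 (SE), TD day 10 minus TD day 4, with a 95% interval from -0.93 to 0.11 (limma, adjusted p = 0.96). For Rexo2 it was -0.21 ± 0.24, with an interval from -0.80 to 0.38 (limma, adjusted p = 0.98). Within these intervals lie differences of up to 0.93 for Isg20 and 0.80 for Rexo2. The 2 groups of arrays did not overlap for Isg20. With 2 arrays a group, readings of equal groups also often separate, so no difference is read from this. Nadk had 1 TD array above the floor and Rap1gap 1, and Cd302 none, so for these 3 genes no difference between the TD groups could be measured.

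The TI replicates differed in the same direction in all 5 genes. Replicate 2, a pool of 10 mice, read above replicate 1, a pool of 4, by 1.39-fold for Isg20, 1.51-fold for Rexo2, 2.23-fold for Nadk, 1.69-fold for Rap1gap and 1.08-fold for Cd302. Over all tested probe sets replicate 2 was the higher in 44.8%. Without replicate 2, the log2 differences from TD day 4 were 1.92 for Isg20, 2.30 for Rexo2, 2.87 for Nadk, 2.50 for Rap1gap and 2.36 for Cd302, the last 3 being bounds.

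Other measures moved with the TI group. The ratio of 3' to 5' signal of the Gapdh control, a sign of RNA integrity, was 1.24 and 1.68 in TI, 0.954 and 0.981 in TD day 4, 0.836 and 0.896 in TD day 10, and 0.867 and 1.59 in resting. The same ratio for actin was 1.59 and 1.91 in TI, 1.24 to 1.48 on the TD arrays, and 1.55 and 1.88 in resting. With the Gapdh ratio's log2 value as a covariate, the log2 difference between TI and TD day 4 was 2.08 ± 0.29 (SE) for Isg20, 2.45 ± 0.32 for Rexo2 and 2.64 ± 0.22 for Cd302. It was 3.17 ± 0.48 for Nadk and 3.18 ± 0.48 for Rap1gap. The differences were thus between slightly smaller and larger than without this term, and each standard error rose. The sum of 18 stress and early response markers, which sorting can raise, was 28417 and 23584 in TI, above the 14419 to 22829 of the TD arrays and the 20949 and 22146 of resting. Among them Hspa1a, an inducible heat shock chaperone, read 2876 and 1709 in TI, 152 to 912 on the TD arrays, and 45 and 101 in resting, and ranked 14th by its smaller difference from the TD groups. The part of these stress genes and of the actin ratio in the 5 genes' differences was not tested.

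The summed intensity of 7 plasma cell markers was 10601 and 14112 in TI, against 3502 to 4167 in TD day 4, 2844 to 3584 in TD day 10 and 2295 to 2318 in resting. Jchain, which joins antibody polymers, and Xbp1, the factor of the secretory programme, made up most of it, at 7347 and 9356 and at 2072 and 2951 in TI. Of the defining markers, Sdc1 exceeded the floor on 1 TI array (106) and Prdm1 on neither. Both were near or under the floor on all arrays and did not pass the filter, so they tell little. Tnfrsf17 read 563 and 805 in TI, 235 to 296 on the TD arrays, and 290 and 216 in resting. Cd9 read 312 and 384 in TI, 40 and 183 in resting, and was under the floor on the TD arrays. Irf4 read 125 and 516 in TI, 59 to 263 on the TD arrays, and 292 and 511 in resting, which overlap. TI replicate 2 was again the higher in the sum of the 7 markers. Its part in the 5 genes' differences was not tested.

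For Cd302 the markers of myeloid cells are the relevant ones. The sum of 17 macrophage markers was 7868 to 9444 in TI, 4646 to 4661 in TD day 4, 4256 to 4965 in TD day 10 and 6363 to 6869 in resting. Apoe, which macrophages and other cells make, read 4213 and 3371 in TI, 434 and 775 in resting, and 371 to 1305 on the TD arrays. Without Apoe, a choice made after seeing the data, the other 16 markers summed to 5588 and 6435 in resting, 4497 and 5231 in TI, and 3341 to 4115 on the TD arrays. Cd302 had this order too, but the sum of all 17 markers did not, being highest in TI. Csf1r, another of the 17, read 217 and 247 in TI, 231 and 183 in resting, and 124 to 180 on the TD arrays. The macrophage gene Adgre1 lay between -6 and 22 on all arrays. C1qa read 708 and 597 in resting, 130 and -13 in TI, and -140 to 73 on the TD arrays, all under the floor. The sum of 9 dendritic cell markers was 11449 to 13014 in resting and 4512 to 5473 across all 6 germinal centre arrays, with Ly6d, which B cells also make, accounting for most of the resting sum. Without Ly6d, again chosen after seeing the data, the other 8 summed to 2590 and 3220 in resting, 2598 and 3018 in TI, and 3035 to 3796 on the TD arrays. The sum of 14 neutrophil markers was 6929 to 7221 in resting, 2116 to 3157 in TI, 2036 to 2101 in TD day 4 and 2364 to 2829 in TD day 10. The part of all these markers in the Cd302 result was not tested. The sum of 10 B cell markers was 25319 to 25558 in TI, 22624 to 27298 on the TD arrays and 35089 to 37623 in resting.

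The other genes of 6 lists, drawn around the known roles of the 5 genes, were read in the same comparisons. Against TD day 4, limma called 105 of 7253 probe sets (1.45%), with 0.731% higher and 0.717% lower in TI. Against TD day 10 it called 174 (2.4%), with 1.2% in each direction. Of the 114 tested genes of the 6 lists together, 0 passed in either comparison, where the shares over all probe sets would amount to 1.7 and 2.7 genes. The counts of 0 are thus close to the background and set none of these lists apart. In the lists below the 5 genes themselves are left out, each gene is read from its brightest probe set, and a list is described by its counts and median. The median over all tested probe sets was -0.01 against TD day 4 and -0.08 against TD day 10.

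Of 15 tested genes of 3'-5' exonucleases and RNA decay, 0 passed in either direction in both comparisons, with 1 at an unadjusted p under 0.05 in each (limma), and the median log2 difference was -0.03 against TD day 4 and -0.09 against TD day 10. Samhd1, an enzyme that breaks down free deoxynucleoside triphosphates, is induced by interferon. It read 705 and 738 in TI, 484 and 522 in TD day 4, 412 and 422 in TD day 10, and 550 and 594 in resting. Its arrays did not overlap, but its log2 difference from TD day 4, 0.52 ± 0.15 (SE), did not pass (limma, adjusted p = 0.18), nor did that from TD day 10 (adjusted p = 0.056). Rexo1, a relative of Rexo2, read 481 and 534 in TI and 422 to 590 on the TD arrays, which overlap. Parn, a poly(A) nuclease, read 151 and 160 in TI, 185 to 227 on the TD arrays, and 273 and 126 in resting.

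Isg20 is named for its induction by interferon, so 26 tested interferon-stimulated genes were read beside it. None passed between TI and TD day 4 (limma, 2 higher and 0 lower at an unadjusted p under 0.05) or between TI and TD day 10 (3 higher and 1 lower). Their median log2 difference was -0.07 and -0.03. Isg15, a main interferon target, was under the floor on all arrays and was not among those tested. Mx1, an antiviral GTPase, read 193 and 224 in TI, 139 and 26 in TD day 4, 145 and 214 in TD day 10, and 259 and 183 in resting, so it overlapped between TI and both TD day 10 and resting. Against resting, 1 gene rose and 4 fell in TI, where 5.42% of all probe sets were called higher and 3.98% lower (9.4% in all). In TD day 4, 0 rose and 5 fell (5.83% and 3.58%, 9.42% in all), and in TD day 10, 0 rose and 6 fell (6.45% and 4.44%, 10.9% in all). Over all 20 alternatives, 0 to 6 fell in TI, 0 to 5 in TD day 4 and 1 to 7 in TD day 10, with the fewest when only the arrays compared were fitted. Leaving out 1 array at a time, 3 to 4, 2 to 5 and 3 to 7 fell. Of these, the lowest count in TD day 4 came without either of its replicates. The lowest count in TD day 10 came without either of its replicates or resting replicate 2, and 3 fell in TD day 4 without either resting or either TD day 10 replicate. The 1 that rose in TI, Psmb9, an immunoproteasome subunit, was lost without resting replicate 1, either TD day 4 replicate or either TI replicate. Irf1 and Irf9, factors of interferon signalling, and the antiviral gene Rsad2 fell in all 3 groups, which share the resting arrays. Irf1 read 588 and 506 in TI, 640 to 735 on the TD arrays, and 1109 and 1238 in resting. Isg20 was above resting in TI on both arrays.

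In mitochondrial RNA and DNA upkeep, the setting of Rexo2, 0 of 20 tested genes passed against TD day 4 (limma, 2 higher and 1 lower at an unadjusted p under 0.05) and 0 against TD day 10 (2 higher and 3 lower). The medians were -0.08 and -0.18. Tk2, the mitochondrial thymidine kinase, read 211 and 215 in TI, 131 and 164 in TD day 4, 156 and 143 in TD day 10, and 344 and 320 in resting. Ssbp1, which coats single-stranded mitochondrial DNA, read 139 and 140 in TI, 189 and 198 in TD day 4, 214 and 181 in TD day 10, and 107 and 121 in resting, an order unlike that of Rexo2.

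Among genes of NAD and NADP metabolism, the setting of Nadk, 0 of 19 passed against TD day 4 (limma, 0 higher and 1 lower at an unadjusted p under 0.05) and 0 against TD day 10 (1 higher and 0 lower), with medians of -0.11 and -0.22. Nnt, the mitochondrial transhydrogenase that makes NADPH, read 150 and 143 in TI, 48 and 57 in TD day 4, 134 and 47 in TD day 10, and 109 and 231 in resting. Ncf4, a subunit of the NADPH oxidase, read 397 and 435 in TI, 453 to 660 on the TD arrays, and 1430 and 1310 in resting. Against resting, 4 genes of the list fell and 1 rose in TI, and 3 fell and 1 rose in each TD group. Over all probe sets 3.98% were called lower and 5.42% higher in TI. The shares were 3.58% and 5.83% in TD day 4, and 4.44% and 6.45% in TD day 10. Ncf4, Ncf1 and Cyba, all of that oxidase, were among those that fell in all 3 groups, and the 1 that rose was Mthfd2, a mitochondrial folate enzyme. The counts that fell dropped to 1, 0 and 0 at the lowest when 1 array was left out. In TI the count was 1 without either TI or either TD day 4 replicate. In TD day 4 it was 0 without any 1 of those 4 arrays, and in TD day 10 it was 0 without TD day 10 replicate 1.

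Of 21 tested genes of the Rap1 cycle, 0 passed against TD day 4 (limma, 0 at an unadjusted p under 0.05) and 0 against TD day 10 (2 higher and 1 lower). Both medians were 0.01. Rap1a read 234 and 202 in TI, 244 to 307 on the TD arrays, and 214 and 160 in resting. Sipa1, another GTPase-activating protein of Rap1, read 762 and 802 in TI, 735 to 790 on the TD arrays, and 1087 and 1321 in resting, with TI and TD overlapping. Gnai2, a G protein subunit known to bind Rap1gap, read 12816 and 14515 in TI, 9463 to 11286 on the TD arrays, and 13631 and 13019 in resting. Rassf5, an effector that links Rap1 to integrins, read 812 and 805 in TI, 581 to 673 on the TD arrays, and 1184 and 1537 in resting. It fell in both TD groups against resting, as 1 of 3 genes of the list in each. In TI its log2 difference from resting was -0.74 ± 0.19 (SE) and did not pass (limma, adjusted p = 0.063). The other 2 genes, Apbb1ip and Rasa3, fell in TI as well, so the fall was not particular to TD. Over all probe sets 3.98% were called lower in TI, 3.58% in TD day 4 and 4.44% in TD day 10. Gnaz rose in TD day 10, where 6.45% of all probe sets were called higher. Over the 20 alternatives the list's count that fell ranged from 0 to 4 in TD day 4 and from 0 to 5 in TD day 10.

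For Cd302, 0 of 14 tested C-type lectin genes passed against TD day 4 (limma, 0 higher and 2 lower at an unadjusted p under 0.05) and 0 against TD day 10 (0 higher and 1 lower). Their medians were -0.18 and -0.14. Ly75, a related receptor of dendritic cells whose gene adjoins Cd302 in many mammals, was under the floor in TI and resting (25 and 7, and 54 and 12) and read 79 to 140 on the TD arrays. Cd72, an inhibitory B cell receptor, read 427 and 373 in TI, 620 to 985 on the TD arrays, and 1145 and 1031 in resting. Its log2 difference from TD day 4 was -1.06 ± 0.21 (limma, adjusted p = 0.077). Clec11a, a secreted lectin, read 239 and 18 in TI, 255 to 502 on the TD arrays, and 199 and 147 in resting.

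The secretory pathway list, drawn up in part from genes already known to be high in these TI arrays and so no independent evidence, was read in the same way. Of its 40 tested genes 9 rose and 0 fell against TD day 4 and 9 rose and 0 fell against TD day 10 (limma), with medians of 0.81 and 1.03. Edem1, which marks misfolded glycoproteins for degradation, read 639 and 803 in TI, 128 and 133 in TD day 4, 118 and 118 in TD day 10, and 29 and 46 in resting. This is the order seen for Rexo2. Sel1l, of the same degradation complex, read 326 and 308 in TI and was under the floor on all other arrays, much as Rap1gap. Creld2, a disulfide isomerase induced by stress of the endoplasmic reticulum, read 1338 and 1708 in TI, 250 to 337 on the TD arrays, and 273 and 227 in resting. H13, the signal peptide peptidase, read 1477 and 2222 in TI, 139 to 262 on the TD arrays, and 290 and 448 in resting, the order of Isg20 and Nadk. The count against TD day 4 fell to 0 without either TD day 4 replicate or without TI replicate 2. It was 2 without TI replicate 1 and 3 without either TD day 10 replicate. Against TD day 10 it fell to 0 without TD day 10 replicate 1, to 2 without TD day 10 replicate 2 or TI replicate 2, and to 5 without TI replicate 1. It was 0 in both with the Gapdh ratio as a covariate.

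**Figure D3:**
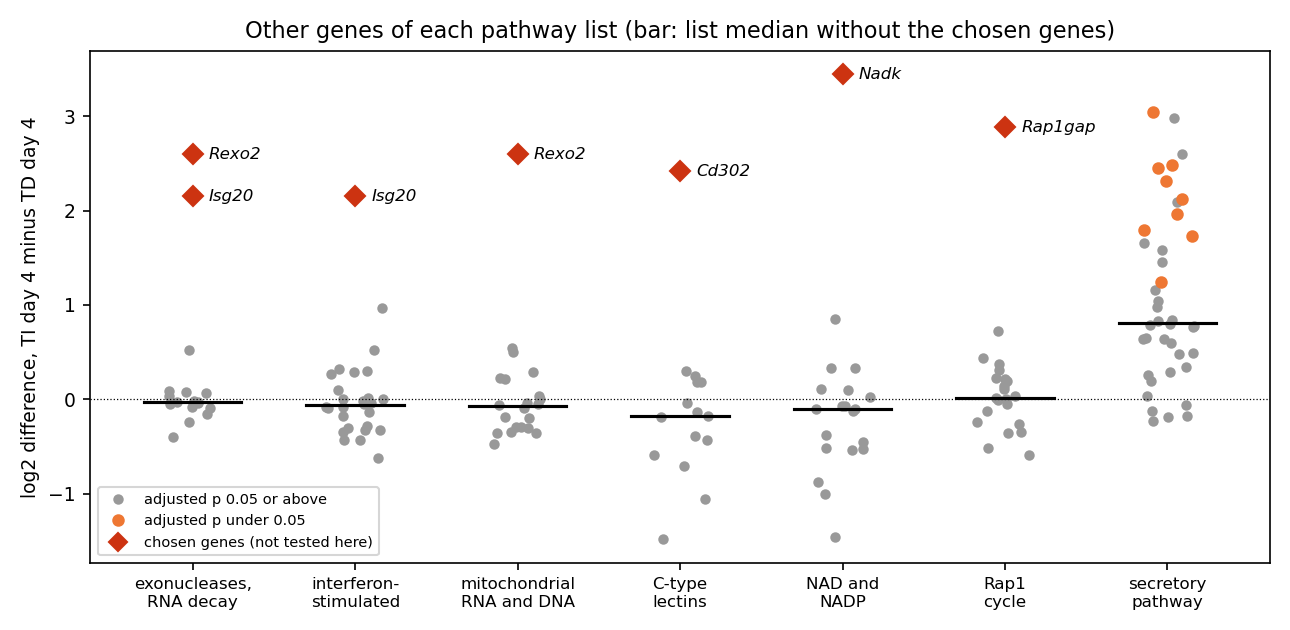
Log2 difference, TI day 4 minus TD day 4, of each tested gene (dots) on 7 lists, with a bar at the median without the 5 chosen genes and diamonds for those genes, which were not tested here. The medians of the first 6 lists lie between -0.18 and 0.01 with 0 genes passing, and that of the secretory pathway list at 0.81 with 9 passing.

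Across the 8 arrays the log2 profiles of the 5 genes correlated with each other by between 0.17 (Rexo2 and Cd302) and 0.98 (Isg20 and Nadk), the former pair differing most in resting cells. These values and those that follow are descriptions over the same 8 arrays on which the genes were chosen. The genes most like the mean of the 5 standardised profiles were Mcoln2 (r = 0.99), a cation channel of endosomes and lysosomes, Slc4a1 (0.98), the anion exchanger of red cells, Tnnt1 (0.98), a muscle troponin, Naxe (0.97), Cd81 (0.97), H13 (0.96), Igf1 (0.96) and Igll1 (0.96). Naxe encodes an epimerase that repairs damaged NADH and NADPH. It read 1601 and 2922 in TI, 743 and 689 in TD day 4, 532 and 549 in TD day 10, and 928 and 960 in resting, the same order as Nadk, and its other probe set correlated by 0.79. Cd81, a tetraspanin of the cell surface, read 1245 and 1391 in TI, 634 to 837 on the TD arrays, and 979 and 905 in resting. Other probe sets of Tnnt1, Igf1 and Igll1 correlated by -0.47, 0.42 and -0.55, so these matches rest on 1 probe set each.

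**Figure D4:**
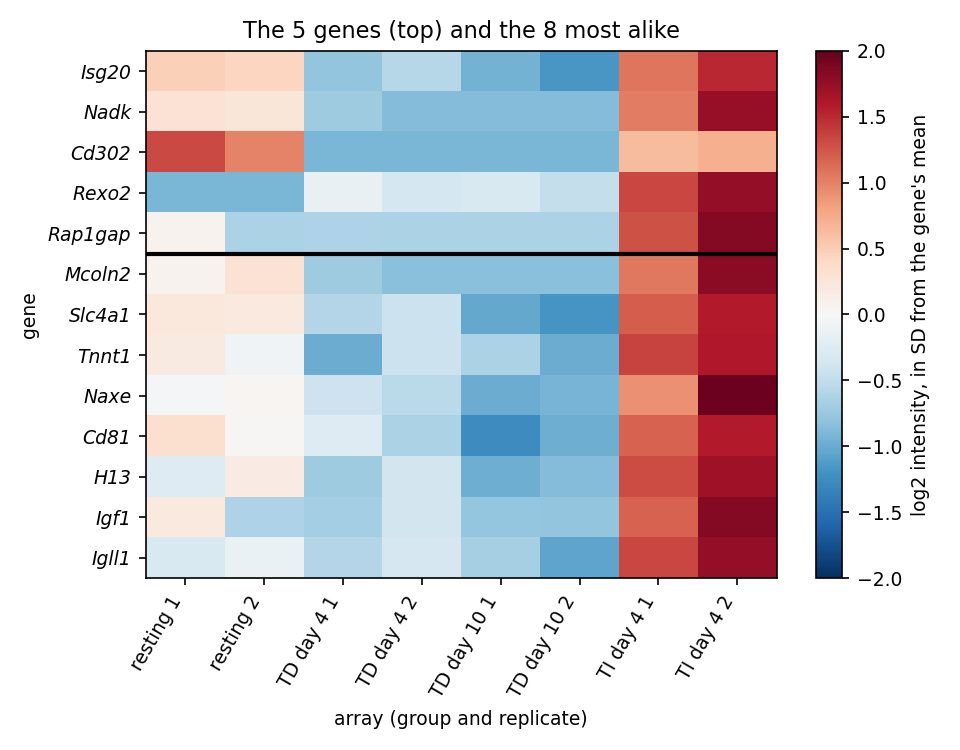
Log2 intensity on the 8 arrays, in SD from each gene's own mean, for the 5 genes (above the line) and the 8 genes whose profile is most like their mean. All 13 are highest in TI except Cd302, which is highest in resting, and Rexo2 is lowest in resting.

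For each gene by itself, the nearest genes were different ones. Isg20 was nearest to Kdelr1 (r = 0.98), a receptor that returns proteins to the endoplasmic reticulum, and to Slc4a1 (0.98). Rexo2 was nearest to Edem1 (0.99) and Kcnn4 (0.97), a potassium channel of lymphocytes. Nadk was nearest to Mcoln2 (0.996) and Slc4a1 (0.97), and Rap1gap to Igf1 (0.99) and Col9a2 (0.98). Mcoln2 read 85 and 45 in TD day 4 and 46 and 77 in TD day 10. For Mcoln2 and Nadk alike, every TD reading but that of TD day 4 replicate 1 was set to the floor. The r values of Mcoln2, also with the mean profile, thus rest in part on floored readings. Cd302 was nearest to Ap2a1 (0.97), a subunit of the clathrin adaptor, and Foxo3 (0.97), a transcription factor of quiescent lymphocytes. Ap2a1 read 827 and 567 in resting, 580 and 595 in TI, and 303 to 365 on the TD arrays. Foxo3 read 289 and 220 in resting, 221 and 261 in TI, and 126 to 143 on the TD arrays, and overlapped between TI and resting.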

How the data were processed

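RNA of sorted B cells was extracted with RNAzol, biotin-labelled and hybridised, per the labels. The authors deposited intensities on a linear scale. Scanner software and scaling: not given in the sources used here. In the deposited table every intensity is a whole number, 30.1% are 0 or less, and array means after trimming 2% at each end were about 200.2, so they were read as scaled, background-subtracted signals and used as deposited. Values under the floor (81, the 50th percentile) were set to it before log2. Where the dimmer group has an array at the floor, the fold is given as a lower bound.

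After 66 control probe sets were set aside, 7253 of 12488 were tested in limma 3.58.1 (R 4.3.3), with 1 model of 4 groups on 8 arrays, 4 residual degrees of freedom plus 2.20 from the prior, two-sided, and Benjamini-Hochberg adjustment at 0.05. The fit was tested on simulated data. In the platform annotation 10855 probe sets carry 1 symbol (10839 matched to RefSeq), 396 carry several and 1237 carry none. The genes, lists and comparisons were chosen with earlier results of these data known. The text names part of the genes a rule gave, which takes the called genes of each list by p, at most 4, or else the 2 with the smallest p; other listed genes were named after their values were seen. Same-numbered arrays of different groups deviated from their group means with correlations of -0.217 to 0.121, so no pairing was seen. The promoter stretches come from RefSeq on GRCm38.p6, and no other position is given.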

Additional observations from a re-analysis of the deposited data

Results flagged for a closer look

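In Isg20 and Nadk, all TI arrays moved one way from resting and all TD arrays the other, which brought them here. Isg20 differed from resting by 0.92 (log2) in TI, by -1.24 at TD day 4 and by -1.65 at TD day 10. Nadk differed by 1.77, -1.68 and -1.80 in the same order, the last 2 being bounds with TD arrays under the floor. The difference between these effects was not tested, since the genes were chosen on it, and the 3 comparisons share the 2 resting arrays.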

How the results depend on the processing

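The log2 differences of the 5 genes between TI and each TD group stayed above 0 in all 200 values from 20 alternatives (1.60 to 4.5), with the floor moving the bounds most. Since the genes were chosen on this difference, its sign was largely fixed in advance and is no support for it. Some alternatives, such as those of the filter, cannot change a gene's log2 difference at all. Of 600 values over all 6 comparisons, 1 turned in sign: Rap1gap in TD day 4 against resting was 0.018 without resting replicate 1 and -0.92 without resting replicate 2, and 4 of the 6 readings of this gene outside TI are under the floor. Between the TD groups, the log2 difference over the alternatives was -0.53 to 0.0 for Isg20 and -0.36 to -0.06 for Rexo2. In limma neither gene passed in the alternatives that kept 2 arrays in each group compared. For Nadk, Rap1gap and Cd302, whose TD readings were mostly or all under the floor, the lack of a call was set by the floor and tells nothing. The replicate block cannot change a log2 difference, because every group holds a replicate 1 and a replicate 2. Only standard errors and counts can move with it. Its effect on counts is below, and since same-numbered arrays showed no pairing it is given here alone.

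Counts over all probe sets moved more, and the cause was not tested. TI against TD day 4 gave 105, and 42 with no filter, 46 with the replicate block, 0 with only the arrays compared, 261 with array weights and 0 with the Gapdh covariate. TI against TD day 10 gave 174, and 104, 107, 0, 292 and 7 in the same order. TD day 10 against TD day 4 gave 14 with no filter. TI against resting gave 682, and 434 with no filter, 100 with only the arrays compared and 454 with array weights. TD day 4 against resting gave 683, and 118 with only the arrays compared. TD day 10 against resting gave 790, and 195 with only the arrays compared, 511 with array weights and 491 with the covariate. Leaving out 1 array gave from 0 to 125, 4 to 245, 0 to 1, 308 to 675, 192 to 621 and 297 to 863 in the order of these comparisons. Of the other pathway lists, counts against TD day 4 were 0 in all 20 alternatives. Against TD day 10 they reached at most 1 for exonucleases, mitochondrial upkeep and the Rap1 cycle and 2 for interferon genes. The secretory list ranged from 0 to 13 and from 0 to 16. With 2 arrays a group, precision is low, and readings under 81 carry no order.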

Other observations

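TI replicate 2 read above replicate 1 in all 5 genes, and in 15 of the 22 other probe sets that were as high in TI, against 44.8% of all tested probe sets. The replicates were pools of 10 and 4 mice, had Gapdh ratios of 1.68 and 1.24, and had summed plasma cell markers of 14112 and 10601 in the same order. Which of these goes with the order of the replicates was not tested.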
